A study of Mus musculus with 8 samples.

Results

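The genes described here are 10 genes of osteoclast formation and function: Ctsk, Acp5, Atp6v0d2, Ocstamp, Dcstamp, Calcr, Tnfrsf11a, Tnfsf11, Nfatc1 and Itgb3. They are a list of names, chosen with earlier results of these data known, out of 21755 genes listed in the tables of the series. The study compared CD45+ cells, that is leukocytes, sorted from skin wounds of streptozotocin (STZ)-induced diabetic mice and of control mice by single-cell RNA sequencing. All mice were male C57BL/6J animals (C57BL/6 in the strain label), and the diabetic group had received STZ at 120 mg/kg at 4 weeks of age. Wounds of 5 mice were pooled for each library and 1 library was made for each group on days 1, 3, 5 and 7 after wounding, which gave 8 libraries. STZ destroys the beta cells of the pancreas, and no vehicle treatment of the control mice is described. Because each group and day was 1 pool, no day has a replicate of its own, and the days are the only repeats of the diabetic against control comparison. The p-values for diabetic against control therefore rest on how far that difference varied between days, and those for day on how far the groups differed in their course over the days.

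Osteoclasts are giant cells of the monocyte and macrophage lineage that resorb bone. The cytokine RANKL (Tnfsf11), made by osteoblast lineage cells and by activated T cells, binds its receptor RANK (Tnfrsf11a) on precursors and switches on the transcription factor Nfatc1, which drives the genes of cell fusion and of resorption. Skin wounds hold no bone, but multinucleated giant cells and macrophages can carry some of the same genes.

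Promoter sequences were taken from RefSeq (GRCm38.p6, from 250 bases before to 50 bases after a start site) and matched 5 of the 10 genes by symbol. Windows of Ctsk and Acp5 are shown because these genes had the most similar patterns in the data, and that of Tnfsf11 because its pattern was the least like theirs. Capitals mark matches, on either strand, to the letters GGAAA (the core of NFAT sites), TGANTCA (AP-1), TCATGTG (the M-box read by MITF and TFE factors) or GAGGAA (the core of PU.1 sites). GAGGAA followed by A would also match GGAAA. Of 3 Acp5 windows, the one with an M-box is shown.
Ctsk, chr3:95498960-95499259, plus strand: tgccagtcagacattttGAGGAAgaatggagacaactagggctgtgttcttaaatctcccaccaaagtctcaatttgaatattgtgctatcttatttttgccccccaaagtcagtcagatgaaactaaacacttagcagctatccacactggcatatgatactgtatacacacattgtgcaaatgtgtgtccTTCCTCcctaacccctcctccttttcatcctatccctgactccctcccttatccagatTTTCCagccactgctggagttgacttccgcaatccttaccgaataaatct
Acp5, chr9:22130549-22130848, minus strand: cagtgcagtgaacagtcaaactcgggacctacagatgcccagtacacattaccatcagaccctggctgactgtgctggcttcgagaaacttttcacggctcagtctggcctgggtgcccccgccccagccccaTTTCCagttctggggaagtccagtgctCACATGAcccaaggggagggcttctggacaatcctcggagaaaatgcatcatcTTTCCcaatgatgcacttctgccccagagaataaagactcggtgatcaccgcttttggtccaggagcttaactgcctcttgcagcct
Tnfsf11, chr14:78307994-78308293, minus strand: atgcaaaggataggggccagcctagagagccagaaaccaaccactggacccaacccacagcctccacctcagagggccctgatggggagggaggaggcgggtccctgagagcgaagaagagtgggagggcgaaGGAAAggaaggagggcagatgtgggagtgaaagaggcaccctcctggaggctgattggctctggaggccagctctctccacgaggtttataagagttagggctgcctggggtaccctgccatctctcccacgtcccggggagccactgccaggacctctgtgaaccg
The Ctsk window held 2 PU.1 cores and 1 NFAT core, the Acp5 window 2 NFAT cores and 1 M-box, and the Tnfsf11 window 1 NFAT core. Of 32851 promoters of the same length, 61.3% held an NFAT core, 28.3% a PU.1 core, 7.81% an AP-1 site and 3.77% an M-box, so a match to the first pair of motifs is common. All 10 genes are protein-coding. On the annotation of GRCm38, those other than Nfatc1, whose position is not given here, lie at chr3:95499256-95509362 (Ctsk), chr9:22126727-22135711 (Acp5), chr4:19876841-19922605 (Atp6v0d2), chr2:165393760-165400405 (Ocstamp), chr15:39745930-39760938 (Dcstamp), chr6:3685680-3764714 (Calcr), chr1:105780718-105847981 (Tnfrsf11a), chr14:78277445-78308043 (Tnfsf11) and chr11:104608000-104670476 (Itgb3).

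Of 38959 barcodes, 35215 passed the limits of more than 200 genes and less than 20% mitochondrial UMIs and were taken as cells, 3273 to 5440 in a library. A UMI is a tag that counts 1 captured RNA molecule. The tables held 19236522 to 33842509 UMIs, and the median cell had 2573 to 8219 UMIs, with the highest median in the control day 5 library, which also lost the largest share of barcodes (28.5%). Levels are given as counts per 1000000 (CPM), that is UMIs of a gene scaled to a sum of 1000000 over the cells added up, with exact 95% Poisson intervals that cover counting error only. Cells were clustered with the 10 genes left out, and clusters were named by markers that do not include them. A cluster of 398 cells took the name osteoclast-like, with 10 of 11 osteoclast markers detected in at least 10% of its cells. Its leading genes were Ctsk, Atp6v0d2, Acp5, Mmp9, Slc9b2, Tsc22d1, Tfrc, Nfatc1, Birc5 and Top2a, so genes of the cell cycle (Birc5 and Top2a) also led it. The median osteoclast-like cell had 22318.5 UMIs, 3.55 times the median of its library, and the number of nuclei in a cell was not measured.

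Osteoclast-like cells were found on days 3, 5 and 7 and in neither day 1 library. The diabetic group had 0, 45, 10 and 2 such cells on days 1, 3, 5 and 7, which was 0, 0.827, 0.239 and 0.0547% of the cells of a library. The control group had 0, 53, 252 and 36 cells, or 0, 1.10, 7.70 and 0.774%. Most of them (252 of 398) thus came from 1 library, control day 5. Together with macrophage-like cells, they are called the macrophage lineage below, and this sum held 164, 884, 249 and 985 cells in diabetic wounds and 220, 623, 1740 and 2346 cells in control wounds.

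The share of UMIs that lay in osteoclast-like cells differed between the genes and depended on the control day 5 library. Over all libraries these cells held 69.9% of all Ctsk UMIs, 54.6% of Atp6v0d2 and 51.4% of Acp5, although they were 398 of 35215 cells. They held 31.5% of Ocstamp, 30.8% of Nfatc1, 30.7% of Dcstamp, 14.0% of Tnfrsf11a and 9.99% of Itgb3 UMIs. Without control day 5, an alternative added after the data were seen, the shares were 53.3% for Ctsk, 36.1% for Atp6v0d2, 32.3% for Acp5, 14.96% for Nfatc1, 14.1% for Ocstamp, 13.5% for Dcstamp, 6.15% for Tnfrsf11a and 1.91% for Itgb3. Within single libraries the Ctsk share was 76.2% on diabetic day 3, 74.9% on control day 3 and 78.3% on control day 5, but 32.6% on diabetic day 5, 18.2% on diabetic day 7 and 43.5% on control day 7. For Tnfsf11 the share was 0.559%, and T cell-like cells held 77.8% (77.4% without control day 5). T cell-like cells also held the largest share of Itgb3 UMIs of any class (29.4%).

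**Figure D1:**
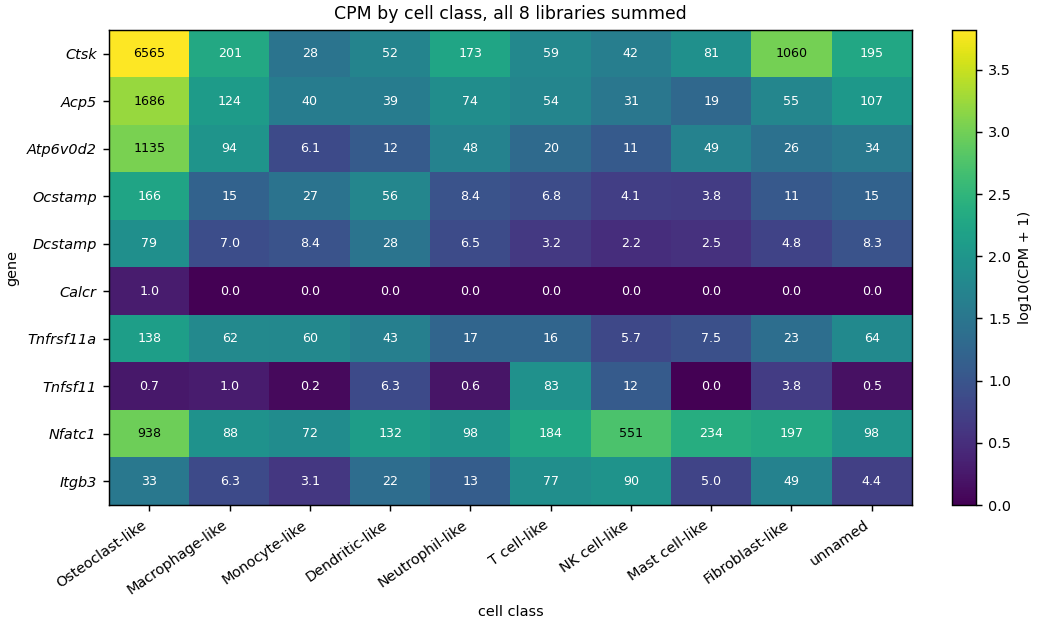
Level of each gene (CPM, all 8 libraries summed, colour on a log10 scale) by cell class, to be read along a gene and not between genes. In these sums osteoclast-like cells had the highest level of 8 of the 10 genes, T cell-like cells that of Tnfsf11 (82.9) and NK cell-like cells that of Itgb3 (89.9). The order varied between libraries. Itgb3 in T cell-like and NK cell-like cells was 63.0 and 19.0 on control day 3, and 78.6 and 147 on diabetic day 5. Dcstamp on diabetic day 5 was 18.0 in osteoclast-like and 42.5 in dendritic-like cells.

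Ctsk encodes cathepsin K, the protease that cleaves bone collagen. In the macrophage lineage Ctsk stood at 23.4, 974, 311 and 112 CPM on days 1, 3, 5 and 7 in diabetic wounds, and at 8.48, 411, 2392 and 446 in control wounds. The highest level was thus on day 3 in diabetic wounds and on day 5 in control wounds, and the groups crossed between these days. The ratio of diabetic over control was 2.37 (2.26 to 2.48) on day 3, and control over diabetic was 7.69 (7.12 to 8.31) on day 5 and 3.99 (3.72 to 4.29) on day 7. The day 5 ratio depended on the clustering: its log2 value was -2.94, and -1.83 with the 10 genes kept among the genes used to cluster. It also depended on 1 cell, since 296 of the 656 Ctsk UMIs of the diabetic lineage lay in 1 cell. Without the cell with most UMIs of the gene in each library, an alternative added after the data were seen, control over diabetic was 13.7 (12.3 to 15.2). In macrophage-like cells alone, Ctsk was 14.1-fold (11 to 18.6) higher in control wounds on day 5, at 450 against 31.8 CPM. T cell-like cells of the same libraries, which should not make Ctsk, had 316 and 8.25, and the part of RNA from other cells in the macrophage-like ratio was not tested. Within osteoclast-like cells it was 2.88-fold (2.66 to 3.13) higher in control wounds on day 5, at 7734 in 252 cells against 2684 in 10 cells, and 2.88-fold (2.75 to 3.03) higher in diabetic wounds on day 3, at 6337 in 45 cells against 2197 in 53. The diabetic day 5 cell with 296 Ctsk UMIs was 1 of the 10 osteoclast-like cells of that library, which held 596 in all. Intervals from so few cells cover counting error and not the spread between cells. On day 7 both libraries were close, at 5660 in the 2 diabetic cells and 5225 in the 36 control cells (ratio 1.08, 0.965 to 1.21). Over all cells the control over diabetic ratio on day 5 was 23.3 (22.2 to 24.4), and in such a sum more cells of a type and more RNA per cell cannot be told apart. With all barcodes in place of the cells kept, the log2 ratio over all cells was -4.53 against -4.54.

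The level within osteoclast-like cells was not even. The median osteoclast-like cell held 33 Ctsk UMIs on diabetic day 3, 1 on control day 3, 73 on control day 5 and 133.5 on control day 7, and the highest held 954. Of the 398 cells, 367 had a Ctsk UMI, 380 an Acp5 UMI and 344 an Atp6v0d2 UMI. On control day 3, 31 of 53 cells had a Ctsk UMI while 45 of 53 had an Acp5 UMI. A cell with 0 UMIs need not lack the RNA, and a UMI can come from other cells, since on control day 5 64.6% of T cell-like cells also had a Ctsk UMI.

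Acp5 encodes tartrate-resistant acid phosphatase, the enzyme of the TRAP stain. Its lineage level was 24.9, 289, 204 and 84.8 CPM in diabetic wounds and 24.6, 240, 652 and 193 in control wounds on days 1, 3, 5 and 7. The day 5 ratio of control over diabetic was 3.19 (2.90 to 3.52), smaller than that of Ctsk. In osteoclast-like cells Acp5 stood at 1490, 1171 and 1185 on days 3, 5 and 7 in diabetic wounds and at 1021, 1886 and 1519 in control wounds. Atp6v0d2, a subunit of the proton pump that acidifies the resorption space and is also needed for fusion, stood in the lineage at 7.33, 182, 78.8 and 98.1 in diabetic wounds and at 5.94, 145, 439 and 159 in control wounds. It had a day 5 ratio of 5.58 (4.78 to 6.54) in the lineage and of 10.3 (6.98 to 15.7) in macrophage-like cells alone, where it stood at 141 in control and 13.8 in diabetic wounds, beside 61.2 and 4.34 in T cell-like cells. The lineage ratio of Atp6v0d2 was 10.4 (8.43 to 13) without the top cell of each library, which held 79 of its 166 UMIs in the diabetic one. All 3 resorption genes were thus higher in the diabetic library on day 3 and in the control library on days 5 and 7.

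**Figure D2:**
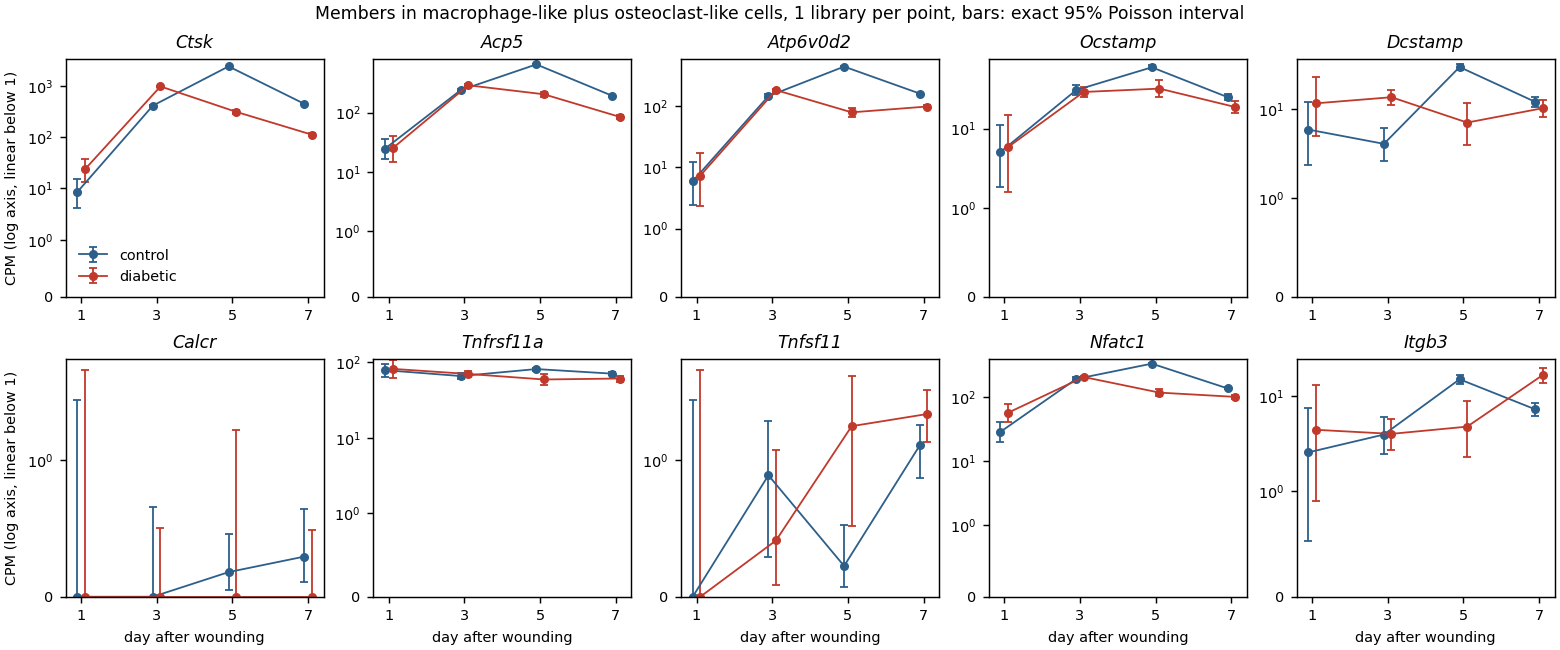
Levels of the 10 genes in the macrophage lineage (CPM, log axis that is linear below 1) against day after wounding, with 1 library per point and exact 95% Poisson intervals. Ctsk, Acp5, Atp6v0d2 and Nfatc1 were highest on day 3 in diabetic wounds and on day 5 in control wounds, whereas Tnfrsf11a stayed between 59.3 and 82.1.

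A rule of 2-fold between the libraries of a day, with at least 50 UMIs, places these values beside all genes. In the macrophage lineage 8 of the 10 genes had enough UMIs for it. On day 5, 6 of the 8 were at least 2-fold lower in the diabetic library (Ctsk, Acp5, Atp6v0d2, Dcstamp, Nfatc1 and Itgb3), beside 7.47% of all genes, and 0 were higher, beside 3.69%. Dcstamp (15 diabetic and 667 control UMIs) and Itgb3 (10 and 331) reached 50 UMIs only through the control library, where they were high. Their place in this count therefore adds no support. On day 3, Ctsk and Dcstamp were at least 2-fold higher, beside 2.93% of all genes, and 0 were lower, beside 1.36%. Here Dcstamp (100 diabetic and 23 control UMIs) reached 50 UMIs only through the diabetic library. On day 7, Ctsk and Acp5 were lower, beside 2.33%, and Itgb3 was higher, beside 1.9%. Over all cells, 5 of 9 genes were lower on day 5 (Ctsk, Acp5, Atp6v0d2, Tnfrsf11a and Nfatc1), beside 16.5% of all genes, and Tnfsf11 was higher, beside 10.7%. On day 3 of that sum Ctsk and Dcstamp were higher, beside 3.1%, and Tnfsf11 was lower, beside 3.69%. Tnfsf11 (42 diabetic and 110 control UMIs) reached 50 UMIs there only through the control library, so its place adds no support. On day 7 Tnfsf11 and Itgb3 were higher, beside 4.97%, and Ctsk, Acp5 and Atp6v0d2 were lower, beside 3.28%. The median gene itself was shifted on day 5, by -0.23 on the log2 scale over all cells and by -0.10 in the lineage.

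**Figure D3:**
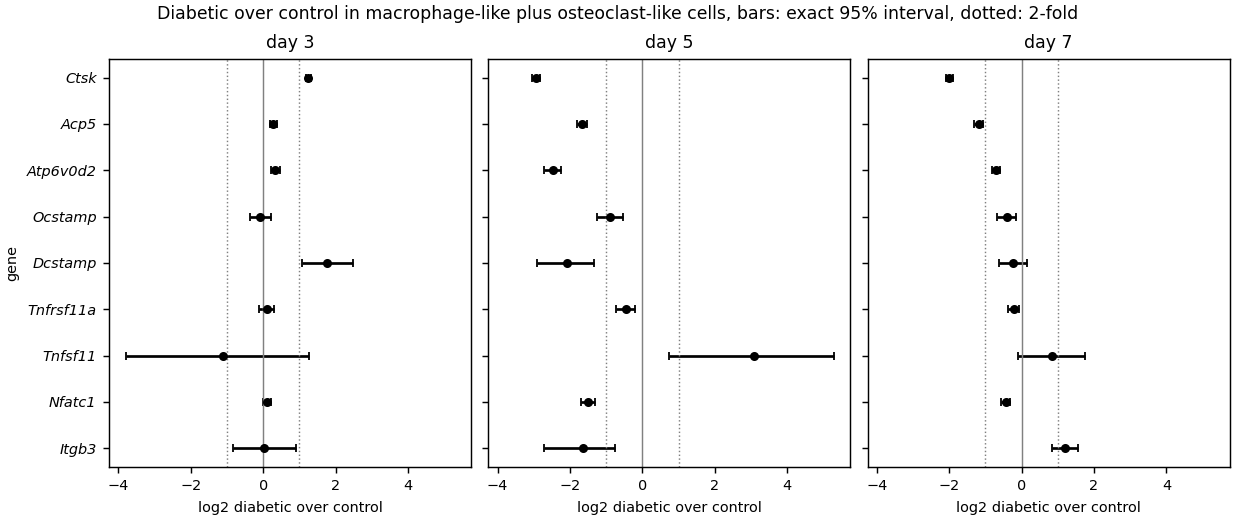
Log2 ratio of the diabetic over the control library in the macrophage lineage on days 3, 5 and 7 for 9 genes, with exact 95% intervals for counting error and dotted lines at 2-fold (Calcr had too few UMIs). The resorption genes lay to the right of 0 on day 3 and to the left of it on days 5 and 7.

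T cells are not known to make Ctsk, so their Ctsk UMIs were taken as a gauge of RNA from other cells, in which free RNA and doublets cannot be told apart. The 10 T cell-like cells with most Ctsk UMIs were deeper than their class, though choosing cells by UMIs of a gene itself favours deep cells. Their median was 14949.5 against 3886 UMIs on control day 5 and 13743.5 against 3774 on control day 7. T cell-like cells had 8.05, 52.6, 8.25 and 19.5 CPM of Ctsk on days 1, 3, 5 and 7 in diabetic wounds and 0, 15.2, 316 and 99.2 in control wounds. The gauge moved with the lineage: it was 38.3-fold (24.1 to 64.4) higher in the control library on day 5 and 3.47-fold (1.98 to 6.30) higher in the diabetic library on day 3. As a share of the lineage level, it was 5.40 and 3.69% on day 3, 2.65 and 13.2% on day 5, and 17.5 and 22.2% on day 7 in the diabetic and the control group. For Acp5 this share was larger, at 19.6 and 22.6% on day 5 and 56.4 and 34.8% on day 7. The Acp5 of T cell-like cells did not follow the mix of its library on days 3, 5 and 7 in either group. Their Ctsk UMIs per Acp5 UMI were 1.23 (0.768 to 1.98), 0.207 (0.119 to 0.341) and 0.408 (0.299 to 0.552) in diabetic wounds. In control wounds this ratio was 0.452 (0.248 to 0.795), 2.14 (1.76 to 2.62) and 1.48 (1.20 to 1.82). Over all cells it was 2.73, 1.20 and 1.20 in diabetic and 1.52, 3.58 and 2.42 in control wounds. On days 5 and 7, dendritic-like cells had 0.335 and 0.415 in diabetic and 2.91 and 1.95 in control wounds. Macrophage-like cells had 0.353 and 0.913 in diabetic and 2.22 and 1.36 in control wounds. The source of the Acp5 UMIs of T cell-like cells was not tested. Subtracting the T cell-like level changed the day 5 log2 ratio of Ctsk in the lineage from -2.94 to -2.78.

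Shares of cells with a Ctsk UMI were taken after each cell was thinned to 1000 UMIs. On day 5 they were 34.5% of lineage cells in control wounds (587 of 1701) and 4.70% in diabetic wounds (11 of 234), while T cell-like cells had 17.0 and 0.913%. On day 7 they were 13.9 and 4.68%, with 7.60 and 1.66% in T cell-like cells. Without thinning, 92.1% of control and 18.1% of diabetic lineage cells had a Ctsk UMI on day 5, beside 64.6 and 3.98% of T cell-like cells. In both groups and on both days the lineage share lay above that of T cell-like cells of the same library.

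In neutrophil-like cells the Ctsk UMIs mostly sat in a few cells, except on control day 3. Their Ctsk level was 2.43, 106, 132 and 132 CPM in diabetic wounds and 1.06, 16.2, 1152 and 698 in control wounds, above the level of the lineage on day 7 in both groups. On control day 7, 10 of 1104 neutrophil-like cells held 71.9% of these UMIs, and the median depth of these 10 cells was 16284 UMIs against 2367 for the class. On diabetic day 5, 10 of 1921 cells held 90.2%, with 472 Ctsk UMIs in 1 cell. The top 10 cells held 50.9 to 90.2% in 5 of the 6 libraries of days 3, 5 and 7, and 27.6% on control day 3, where 76 UMIs lay in 65 cells. A Ctsk UMI was also found in 57.6% of neutrophil-like cells on control day 5 and in 31.3% on control day 7. These shares were 64.6 and 32.9% for T cell-like cells. In T cell-like cells the top 10 held 32.3% on diabetic day 7, 30.2% on control day 5 and 17.5% on control day 7. The ratio of Ctsk to Acp5 UMIs on control day 5 was 4.10 in osteoclast-like, 2.94 in neutrophil-like, 2.22 in macrophage-like and 2.14 in T cell-like cells. On diabetic day 5 the same ratios were 2.29, 2.21, 0.353 and 0.207, so there neutrophil-like cells stood close to osteoclast-like cells and T cell-like cells far below both. That likeness rests on few cells, since 1 neutrophil-like cell held 472 of the 797 Ctsk UMIs. On days 3 and 7 neutrophil-like cells had 2.14 and 1.52 in diabetic and 0.571 and 2.63 in control wounds. Osteoclast-like cells had 4.25 and 4.78, and 2.15 and 3.44. The 10 neutrophil-like cells of control day 7 too were chosen for most Ctsk UMIs, which itself favours deep cells. Whether those deep cells are doublets was not tested, since the doublet caller marked too few cells to be used.

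**Figure D4:**
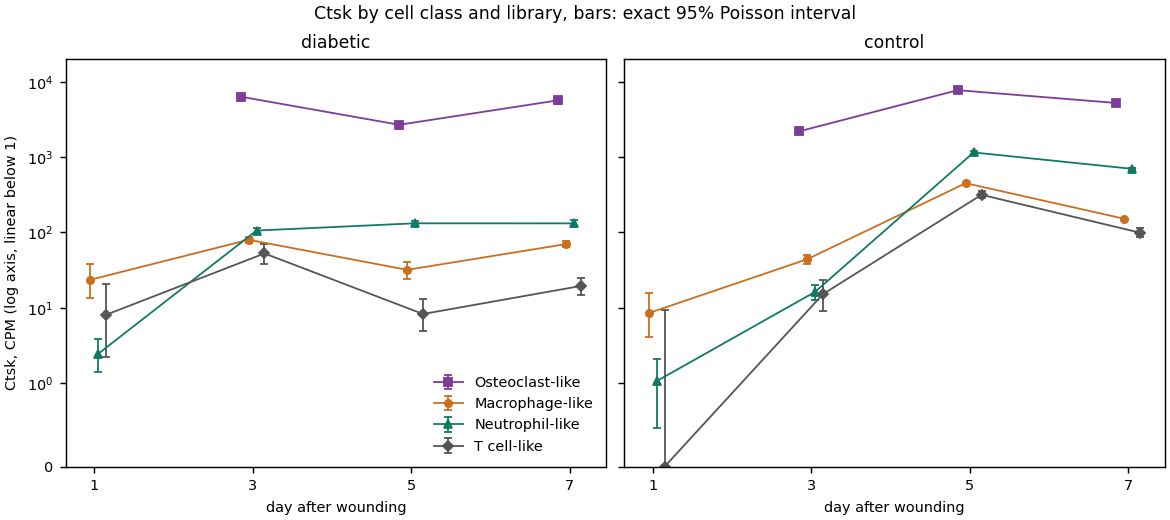
Ctsk (CPM, log axis that is linear below 1) by day in 4 cell classes, with the diabetic group on the left, the control group on the right and exact 95% Poisson intervals. Osteoclast-like cells, with no point on day 1, lay above all other classes in every library that held them, and T cell-like cells reached 316 in control wounds on day 5.

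Ocstamp and Dcstamp encode membrane proteins needed for precursors to fuse. Ocstamp stood in the macrophage lineage at 5.86, 28.9, 31.8 and 18.7 CPM in diabetic wounds and at 5.09, 30.5, 58.9 and 24.9 in control wounds on days 1, 3, 5 and 7. Counting intervals of the groups excluded equality on day 5, where control over diabetic was 1.85 (1.45 to 2.40), and on day 7, where it was 1.33 (1.10 to 1.62). In macrophage-like cells alone the order on day 5 was the other way, with a diabetic over control ratio of 1.77 (1.26 to 2.44). Dcstamp stood at 11.7, 13.7, 7.12 and 10.3 in the diabetic lineage and at 5.94, 4.10, 30.1 and 12.2 in the control lineage. It was 3.35-fold (2.12 to 5.53) higher in the diabetic library on day 3 and 4.23-fold (2.54 to 7.59) higher in the control library on day 5. The day 3 value rested in part on 1 osteoclast-like cell with 40 of the 100 Dcstamp UMIs of the diabetic lineage, and it was 2.02 (1.23 to 3.42) without that cell and 2.57 (1.496 to 4.62) without the top cell of each library. In osteoclast-like cells Dcstamp was uneven, with a UMI in 146 of 398 cells.

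Both fusion genes had a source outside the macrophage lineage. Dendritic-like cells held 24.3% of all Ocstamp and 25.02% of all Dcstamp UMIs. Their Ocstamp level was 40.4, 35.1, 66.1 and 70.5 CPM in diabetic wounds and 28.8, 52.0, 66.1 and 51.1 in control wounds. This was above macrophage-like cells in every library, and so was the Ocstamp level of monocyte-like cells. The latter stood at 18.5, 30.9, 47.5 and 32.3 in diabetic and at 13.3, 35.1, 43.5 and 60.5 in control wounds. On control days 5 and 7 it rested on 14 and 11 UMIs. On day 5, when the lineage levels differed between groups, the dendritic-like levels did not differ beyond counting error, with diabetic over control ratios of 1.00 (0.806 to 1.25) for Ocstamp and 1.00 (0.765 to 1.32) for Dcstamp. The cluster led by Cd209a carried most of this, at 66.8 for Ocstamp and 30.1 for Dcstamp.

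Tnfrsf11a, the RANK receptor, was the most even of the genes. Its lineage level was 82.1, 70.2, 59.3 and 61.1 CPM in diabetic wounds and 78.9, 65.9, 81.6 and 70.9 in control wounds on days 1, 3, 5 and 7. The largest ratio between groups was 1.38 (1.15 to 1.66) on day 5, with control higher. It was also present in monocyte-like (59.9), dendritic-like (43.1) and osteoclast-like cells (138), and the gauge in T cell-like cells was 16.4. Over all cells the day 5 ratio was larger, 2.05 (1.89 to 2.23), in a library where the macrophage lineage made up a larger share of cells.

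Calcr, the calcitonin receptor of mature osteoclasts, was almost absent. It had 4 UMIs in the control day 5 library and 6 in the control day 7 library. The other 6 libraries had 0 UMIs, and a count of 0 allows up to 0.123 to 0.159 CPM in these. Of the 10 UMIs, 9 lay in osteoclast-like cells, in 3 of 398 cells, with 5 in 1 cell. No difference between groups was detectable for Calcr at this depth.

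Itgb3, the beta 3 chain of the vitronectin receptor by which osteoclasts attach to bone, was led by lymphoid cells. T cell-like cells had 72.5, 35.5, 78.6 and 97.5 CPM in diabetic wounds and 76.2, 63.0, 49.1 and 80.1 in control wounds. The macrophage lineage had 4.40, 3.99, 4.75 and 16.6 in diabetic wounds and 2.54, 3.92, 14.9 and 7.21 in control wounds, below T cell-like cells in all 8 libraries. In the lineage, Itgb3 was 3.15-fold (1.69 to 6.62) higher in the control library on day 5 and 2.30-fold (1.80 to 2.94) higher in the diabetic library on day 7. On day 5 osteoclast-like cells had 43.3 in the control library and 4.50 (0.114 to 25.1) in the diabetic library, the latter from 1 UMI in 10 cells, while macrophage-like cells had 4.61 in the control and 4.77 in the diabetic library. On day 7 macrophage-like cells had 16.7 in the diabetic and 6.46 in the control library. The 6 T cell markers summed to 221 CPM in the diabetic and 147 in the control lineage on day 7, against 17.0 to 70.2 on the other days. In the control lineage Itgb3 fell from 14.9 on day 5 to 7.21 on day 7. The part of T cell RNA in the Itgb3 result was not tested.

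Tnfsf11, the RANKL gene, was a gene of T cell-like cells and close to 0 in the macrophage lineage, where 62 UMIs were counted in all. T cell-like cells stood at 20.1, 34.2, 108 and 98.5 CPM on days 1, 3, 5 and 7 in diabetic wounds and at 35.6, 67.8, 48.1 and 98.7 in control wounds. The level was 2.24-fold (1.64 to 3.12) higher in diabetic wounds on day 5, 1.98-fold (1.28 to 3.16) higher in control wounds on day 3, and did not differ beyond counting error on day 7 (diabetic over control 0.998, 0.838 to 1.19). These sums mix 2 clusters whose shares differed between the libraries, and the clusters are given apart below. The UMIs were also uneven over cells: the 10 cells with most held 62.4% of them on control day 3 (85 UMIs in 36 of 249 cells), 41.5% on diabetic day 5, 33.2% on diabetic day 7 and 50.4% on control day 7. Over all cells Tnfsf11 was 7.94-fold (5.96 to 10.7) higher in the diabetic library on day 5, when it held 477 T cell-like cells against 164 in the control library. Thus Tnfsf11 over all cells was highest on day 7 in both groups, at 18.7 and 8.56, and not on the days when Ctsk was highest.

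Both T cell-like clusters carried Tnfsf11, with levels that were not equal in all libraries. The cluster led by Trdc and Il17f, marks of gamma delta T cells, stood at 42.2, 27.2, 123 and 165 CPM in diabetic wounds and at 67.5, 87.3, 95.6 and 103 in control wounds. The cluster led by Ctla4, Trac and Icos stood at 0, 46.3, 91.8 and 82.2 in diabetic wounds and at 9.27, 61.1, 35.5 and 95.1 in control wounds. The first cluster was higher in 7 of 8 libraries, the exception being diabetic day 3. Among these 7, counting intervals of the 2 clusters overlapped on diabetic day 5 and on control days 3 and 7. The cluster led by Trdc held 108 of 170 diabetic and 77 of 249 control T cell-like cells on day 3. On day 5 it held 256 of 477 and 44 of 164, and on day 7 it held 165 of 661 and 270 of 489. Within it, counting intervals of diabetic and control levels did not overlap on day 3 (14.8 to 45.6 in diabetic, 58.0 to 126 in control wounds), with control higher. They met on day 5 (104 to 145 and 58.4 to 148) and not on day 7 (135 to 200 and 84.6 to 124), with diabetic higher. Within the cluster led by Ctla4, they overlapped on day 3 (25.3 to 77.7 and 46.3 to 79.2). They did not overlap on day 5 (75.1 to 111 and 23.6 to 51.3) and overlapped on day 7 (71.5 to 94.1 and 78.6 to 114). The part of this cell makeup in the differences of the sums was not tested. After thinning, 6.16% of diabetic and 4.08% of control T cell-like cells had a Tnfsf11 UMI on day 5, and 7.95 and 6.98% on day 7.

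**Figure D5:**
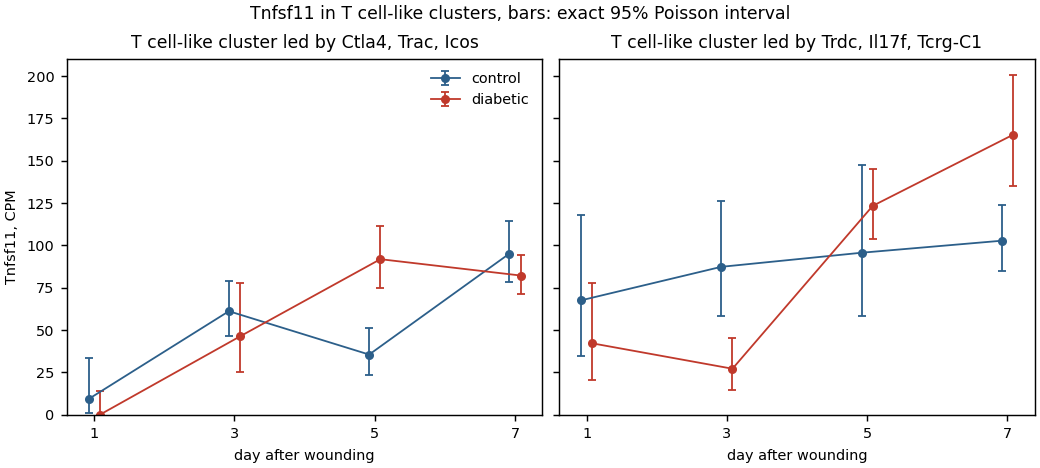
Tnfsf11 (CPM, linear axis) by day in the 2 T cell-like clusters, with 1 library per point and exact 95% Poisson intervals. The diabetic group reached 165 on day 7 in the cluster led by Trdc, while the control group stood at 103.

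Nfatc1, the master transcription factor of osteoclasts, is also used by lymphocytes. Its lineage level was 57.2, 206, 118 and 101 CPM in diabetic wounds and 28.8, 192, 333 and 137 in control wounds on days 1, 3, 5 and 7. On day 3 the groups did not differ beyond counting error (diabetic over control 1.07, 0.991 to 1.16), and on day 5 control was 2.83-fold (2.49 to 3.22) higher. Within osteoclast-like cells it stood at 1047, 585.5 and 937 in diabetic wounds and at 745, 987 and 821 in control wounds on days 3, 5 and 7. NK cell-like cells had 551 and T cell-like cells 184, so a T cell gauge of RNA from other cells does not apply to Nfatc1.

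Whether the groups differed over all days was tested with edgeR's quasi-likelihood test on UMIs summed per library, with day as a block and Benjamini-Hochberg adjustment over all genes. In the macrophage lineage 0 of 9 genes tested passed an adjusted p of 0.05, beside 0.0437% of all genes (5 of 11439), while 1318 genes had an unadjusted p under 0.05 and DESeq2 called 157 genes, none of the 9. Calcr did not pass the filter on low counts. The log2 fold change of diabetic over control was -1.04 for Ctsk (SE 0.63, edgeR adjusted p = 0.555), -0.75 for Acp5 (SE 0.27, adjusted p = 0.316) and -0.83 for Atp6v0d2 (SE 0.37, adjusted p = 0.410). Ctsk was lower in the diabetic library on 2 of 4 days. Without the control day 3 library these 3 genes passed the edgeR test, with log2 fold changes of -2.06, -1.21 and -1.43, and they passed as well without the diabetic day 3 library (-2.05, -1.20 and -1.42) and with no filter on low counts. Over all genes, 170 of 12649, 103 of 11935 and 317 of 19458 passed in these 3 fits. With day as a block, leaving out 1 library of a day removes the contrast of that day. Over all cells 0 of 9 genes passed, beside 0% of all genes (0 of 13857, with 1521 at an unadjusted p under 0.05), and DESeq2 called 92 genes and none of the 9.

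The days differed for more of the genes. In the macrophage lineage, edgeR's test of day called 5 of 9 genes, beside 4.48% of all genes: Acp5 (adjusted p = 0.00303), Ocstamp (0.00550), Atp6v0d2 (0.0104), Ctsk (0.0165) and Nfatc1 (0.0267). All 5 rose from day 1, with log2 changes on days 3, 5 and 7 of 5.92, 6.25 and 4.13 for Ctsk, 3.55, 4.01 and 2.48 for Acp5, 4.86, 5.20 and 4.41 for Atp6v0d2, 2.49, 3.08 and 2.06 for Ocstamp, and 2.27, 2.37 and 1.53 for Nfatc1. Dcstamp (0.519), Tnfrsf11a (0.747), Tnfsf11 (0.467) and Itgb3 (0.183) did not pass. Macrophage-like cells sat mostly in a first cluster on days 1, 3 and 5 and in another on day 7. The first held 138 of 164 diabetic and 195 of 220 control cells on day 1, and 178 of 239 and 1089 of 1488 on day 5. On day 7 the other held 758 of 983 and 2119 of 2310. The part of this change of clusters in the day results was not tested. In macrophage-like cells without osteoclast-like cells, which no day 1 library held, only Acp5 still passed, beside 418 of 10997 genes. The edgeR adjusted p was then 0.0543 for Atp6v0d2, 0.0867 for Ocstamp, 0.140 for Nfatc1 and 0.191 for Ctsk. The count also depended on the clustering, with 2 of 9 genes at resolution 0.4 (Acp5 and Ctsk), beside 204 of 11741 genes. At resolution 1.6, 4 of 8 tested passed, beside 385 of 11423 genes, and Nfatc1 did not pass. The calls were lost without either day 1 library, which leaves 1 library for that day, and far fewer of all genes passed as well. With any 1 library left out, the log2 change on day 5 lay between 4.54 and 7.54 for Ctsk and between 3.29 and 4.54 for Acp5. Over all cells edgeR called 0 of 9 genes by day, beside 0% of all genes (2754 at an unadjusted p under 0.05), while DESeq2 called 1913 genes and 4 of the 9.

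Other genes of the pathway were taken from lists by role. Of 22 tested genes of RANK signalling and osteoclast transcription, 3 rose over days in the macrophage lineage, beside 4.48% of all genes called: Trem2, a receptor that signals with DAP12 (log2 2.12 on day 5, edgeR adjusted p = 0.00111), Irf8, a repressor of osteoclast formation (0.70, adjusted p = 0.0419), and Csf1r, the M-CSF receptor (0.67, adjusted p = 0.0297). The median over the list was -0.09, against 0.06 over all genes. Of 14 tested genes of fusion and adhesion, Src, the kinase of the sealing zone (2.48, adjusted p = 0.0164), the integrin chains Itgav (1.31, adjusted p = 0.0227) and Itgax (1.22, adjusted p = 0.00789) rose, and Adam8, a membrane protease, fell by 0.37 (adjusted p = 0.0417), with a list median of 0.19. Of 25 genes of acid secretion and matrix degradation, 1 rose, which is no more than the 4.48% of all genes: Ctss, the lysosomal cathepsin S (1.04, adjusted p = 0.0135), with a list median of 0.47, while the other pump subunits, the chloride channel Clcn7 and the carbonic anhydrase Car2 of that list did not pass as Atp6v0d2 did. By edgeR 0 of 22, 0 of 14 and 0 of 25 genes differed between diabetic and control in the lineage, beside 0.0437% of all genes, with medians of 0.06, -0.02 and -0.08 against -0.02 over all genes.

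As a description, the genes most like Ctsk were sought among 10115 genes with at least 500 UMIs. Over the 8 library sums, which differ in cell makeup, Pearson's r of log2(CPM + 10) was highest for Atp6ap2, an accessory subunit of the proton pump (0.997), Acp5 (0.994), Acsl3 (0.988), Nubpl (0.986) and Pbdc1 (0.982). Atp6v0d2 ranked 18 (0.972), Nfatc1 328 (0.931), Ocstamp 1551 (0.861), Tnfrsf11a 3160 (0.765) and Dcstamp 3207 (0.762), and Itgb3 (0.087) and Tnfsf11 (0.039) were far from it. Over 62 sums of a cell class in a library, which share libraries, the closest genes were Acp5 (0.937), Atp6v0d2 (0.913), Slc9b2 (0.867), Bdh2 (0.837) and Pls3 (0.828). Acp5 was thus among the closest genes on both scales, and Tnfsf11 was not close on either.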

How the data were processed

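The authors deposited 1 table of raw counts per library, with UMIs by gene and barcode, no normalization and mitochondrial genes included. Barcodes carry index names, so barcodes shared between libraries were not counted. The authors trimmed reads with fastp 0.20.1, assigned barcodes and UMIs and mapped with STAR to a mouse genome. The study's methods name an Ensembl mouse genome, without an assembly name, and the BD Rhapsody system, and the labels list mm9. The series record names a different capture platform from the study's methods. The tables hold gene symbols only, so the coordinates given come from the GRCm38 annotation and not from the tables. All 8 tables were mapped by their sample, 0 columns were unmapped, and 0 rows named no gene.

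The members and lists were chosen with earlier results of these data known. A cell needed more than 200 genes and less than 20% mitochondrial UMIs, and mitochondrial genes were then dropped. After log scaling to 10000 a cell and regression on total UMIs, 2000 variable genes without the 10 members, 10 principal components and 30 neighbours were clustered at resolution 0.8 (scanpy 1.11.5, leidenalg 0.10.2, Python 3.11.15). A cluster was named by the marker list with the highest mean log2 fold (20 CPM added), which had to reach 0.25 with 3 markers detected in 10% of cells. These thresholds were set after clusters had been seen. The cluster led by Gm26917 and Malat1 and 1 other cluster stayed unnamed. Unnamed cells were 4.19 to 25.5% of a library, with the largest share on control day 5 (833 of 3273 cells). Their Ctsk level there was 1100 CPM, against 450 in macrophage-like cells. The order varied between libraries, with 128 and 152 on control day 7. Scrublet marked 0.298% of cells as doublets (105 of 35215), too few for the caller to have worked, so no cell was removed. The study's text gives fewer cells than were kept here, while its table of cells by cluster sums to nearly as many. The names were rebuilt here.

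UMIs were summed per library and class and tested with edgeR 4.0.16 in R 4.3.3 (TMM, filterByExpr, quasi-likelihood F test, treatment and day as terms), over all genes, with DESeq2 1.42.0 as an alternative. Tested on simulated data in which 200 genes were set to differ by 2 on the log2 scale, edgeR recovered 98.5% for treatment and 76.5% for day over all cells, and 100% and 84.5% in the macrophage lineage. In the fits to the measured counts, the SE of the Ctsk log2 fold change for diabetic against control was 1.15 over all cells and 0.63 in the macrophage lineage. The share recovered at such a spread between days was not tested. A single day has 1 library a group, hence ratios with exact intervals and no test. Where a library had 0 counts, a floor of 3 counts was used. Alternatives were other filters, size factors, resolutions 0.4 and 1.6, members kept among the variable genes, subtraction of the T cell-like level and each library left out. Beside the 10 members, genes were named as the 5 most like Ctsk on each scale, as up to 4 genes of a list past the threshold, or as leaders of a cluster. Figures were drawn with matplotlib 3.10.9.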

Additional observations from a re-analysis of the deposited data

Results flagged for a closer look

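For 6 genes the difference between diabetic and control in the macrophage lineage changed its direction between days, with intervals that excluded equality on both days. These changes were not tested, since each day had 1 library per group. The log2 ratio of diabetic over control for Ctsk was 1.47 on day 1 and -2.94 on day 5, a difference of 4.41. For Dcstamp it was 1.75 on day 3 and -2.08 on day 5, a difference of 3.825, and 40 of the 100 diabetic UMIs of day 3 lay in 1 cell, without which the day 3 value was 1.01. Itgb3 went the other way in time, with -1.65 on day 5 and 1.20 on day 7, a difference of 2.853. For Atp6v0d2 the values were 0.33 on day 3 and -2.48 on day 5, a difference of 2.806. Nfatc1 had 0.99 on day 1 and -1.50 on day 5, a difference of 2.487, and Acp5 had 0.27 on day 3 and -1.68 on day 5, a difference of 1.948. In 5 of these 6 genes the diabetic library was the higher one on the earlier day. Day 1 values rest on few UMIs, 16 of Ctsk in the diabetic lineage, and the control day 5 library took part in all 6 differences.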

How the results depend on the processing

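Each condition was 1 library of 5 pooled mice, cells were named by clustering, and UMIs of Ctsk also lay in T cell-like cells, where free RNA and doublets cannot be told apart. The intervals cover counting error only. By replicate number, no paired analysis was possible because each group and day has only replicate 1. The fits did pair the groups by day, through the day block, and with no day block 0 genes passed for diabetic against control over all cells and in the lineage.

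For diabetic against control in the macrophage lineage, the count of genes passing was 0, 3 with no filter on low counts (Ctsk, Acp5 and Atp6v0d2), and 0 to 3 when 1 library was left out, with 3 without either day 3 library. Their edgeR adjusted p was then 1.1e-04 to 0.011, and the cause was not tested. Over all genes, 5 of 11439 passed in the main fit and 317 of 19458 with no filter on low counts. Without the control or the diabetic day 3 library, 170 of 12649 and 103 of 11935 passed. For day over all cells the count was 4 with DESeq2, beside 1913 of 13857 genes. Leaving out 1 library, which leaves 1 for its day, also changed the calls, together with those over all genes. The log2 change on day 5 then lay between 2.91 and 7.21 for Ctsk, 2.14 and 4.70 for Acp5, and 2.48 and 6.07 for Atp6v0d2. For day in the lineage the count of 5 became 1 without osteoclast-like cells, 2 at resolution 0.4, 4 at resolution 1.6 and 0 to 7 when 1 library was left out, with 0 without either day 1 library. Over all genes, 513 of 11439 passed by day in the main lineage fit. Without osteoclast-like cells 418 of 10997 passed, with 204 of 11741 at resolution 0.4 and 385 of 11423 at resolution 1.6. Leaving out 1 library changed the count over all genes as well. The log2 change on day 5 in the lineage then lay between 4.54 and 7.54 for Ctsk. In the lineage, signs turned for uncalled values: Ocstamp, diabetic over control, was 0.25 without osteoclast-like cells, and Dcstamp was 0.10 with DESeq2, 0.43 without osteoclast-like cells, 0.13 with members kept among the variable genes, and -0.70 to 0.67 when 1 library was left out. With 1 library left out, Nfatc1 lay between -0.58 and 0.027 and Itgb3 between -0.57 and 0.77. Dcstamp by day was -0.043 without osteoclast-like cells and -0.56 to 2.14 when 1 library was left out. Over all cells, signs turned when 1 library was left out for diabetic against control of Ocstamp (-0.27 to 0.28), Dcstamp (-0.24 to 0.43), Nfatc1 (-0.30 to 0.053) and Tnfsf11 (-0.40 to 1.24), none of which passed in any of these fits, and for Tnfrsf11a by day (-0.45 to 0.28). The day 5 log2 ratio of Ctsk was -5.03 over all cells when each cell was weighted equally. In the lineage it was -2.78 with the T cell-like level subtracted, -3.24 with equal weights, -1.83 with members kept among the variable genes, -3.17 at resolution 1.6 and -3.77 without the top cell of each library. Of 322 alternative values of 70 single-day ratios, 261 stayed within the interval and 61 moved. Of the ratios whose interval excluded equality, 0 changed sign under these alternatives. Macrophage-like cells alone are not counted among them, and there the day 5 order of Ocstamp was the other way. The fit without a mitochondrial filter was not run for the macrophage lineage.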

Other observations

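Some of these genes were also seen in classes outside the comparisons above. Fibroblast-like cells, which a CD45+ sort should remove and which numbered 57, had 1060 CPM of Ctsk, against 6565 in osteoclast-like cells, and held 1.25% of all Ctsk UMIs. This share depended on the library, with 158 of 58424 UMIs on control day 5, 603 of 14212 on control day 7 and 81 of 227 on diabetic day 1. The dendritic-like cluster led by Fscn1, Ccl22 and Ccr7, marks of migratory dendritic cells, had 40.8 CPM of Tnfsf11 on diabetic day 7 (40 UMIs in 123 cells) and 4.75 on control day 7 (2 UMIs in 58 cells). On control day 1 the same cluster had 41.2 (9 UMIs in 27 cells).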
